A study of Mus musculus with 10 samples.

Results

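The aminoacyl-tRNA synthetases are the enzymes that load each tRNA with its amino acid, and they were described here in cells grown in collagen of low or high density. The list held 36 genes, 20 for enzymes of the cytosol and 16 for enzymes of the mitochondrion. A gene counted as measured when a row of the expression table named its symbol and no other. That was so for 34 of the 36, with 18 cytosolic and 16 mitochondrial enzymes, among 30142 genes with such a row in the whole table. Each of the 34 had a single row, and all 34 were among the 17800 genes tested, those whose mean signal lay above the median of all rows (log2 5.24). Aars had only a row shared with a second gene, and Dars was not analysed here.

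The cells were 4T1, an established mouse mammary carcinoma line. They were seeded at 50000 and grown for 5 days in collagen gels of 2 mg/mL (low density, LD) or 3.5 mg/mL (high density, HD), with no other treatment in either group. There were 5 LD and 5 HD samples, each hybridised to 1 Affymetrix mouse transcriptome array, and the comparison asked how collagen density alters the cells' gene expression. Whether the arrays of a group stem from separate cultures is not in the labels, so the p-values speak only of array-to-array spread, part or all of which may be technical. All signals are on the log2 scale, and all changes are HD minus LD. Called means an adjusted p under 0.05 in the limma fit over all 17800 genes. The number of arrays, not a read depth, limits the precision.

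A large part of the transcriptome differed between LD and HD, which sets the background for every count. Collagen density and any culture or array batch that follows the groups cannot be told apart here. The fit called 50.9% of the genes tested, 31.4% as higher and 19.5% as lower in HD, and the median change of all genes was 0.055. Higher genes made up 61.7% of the calls, and 72.1% after quantile normalization or after scaling each array on its control rows. Control rows of the array differed between the groups too. Negative control rows had a median of 5.67 ± 0.052 in LD (SD, n = 5) against 5.42 ± 0.12 in HD. Positive control rows had 9.21 ± 0.011 against 9.28 ± 0.045, and background rows moved opposite to the negative ones, from 3.47 ± 0.055 to 3.63 ± 0.057. All 3 gaps reached the lowest two-sided exact permutation p of this design, 0.0079. The sources do not say what the negative control rows detect, so neither they nor a scaling on them can be taken as a true floor. Scaling on the control rows called 49.3% of genes higher and 19.1% lower, with a median change of 0.133. After quantile normalization these were 42.9%, 16.6% and 0.0902. Of 5 epithelial markers (Epcam, Cdh1, Krt8, Krt18, Krt19), every mean was at least 8.96 in both groups. Epcam, Cdh1, Krt18 and Krt19 fell in HD, by 0.60, 0.105, 0.13 and 0.76. Cdh1 and Krt18 fell by 0.28 and 0.45 with the control-row scaling, and Krt8 was then called lower too, by 0.27. The part of this fall in the results was not tested. The leukocyte genes Ptprc, Adgre1 and Itgam, the endothelial genes Pecam1, Cdh5 and Kdr, and the fibroblast gene Dcn all had means under the signal floor. Cd3e of T cells lay near that floor, at 5.29 and 5.45, and rose by 0.16 (0.42 with the control-row scaling). Col1a1 and Col1a2 had means of 5.93 to 6.80 and were not called as deposited. Both were called higher after quantile normalization (0.19 each) and with the control-row scaling (0.24 and 0.34), and their part in the results was not tested.

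A synthetase first activates its amino acid with ATP and then joins it to the matching tRNA, which carries it to the ribosome. Cytosolic and mitochondrial protein synthesis use separate enzymes for most amino acids, all encoded in the nucleus. Gars and Kars are exceptions, because each gene yields an enzyme for both compartments. Eprs encodes a fused enzyme for glutamate and proline. Several cytosolic synthetases sit in a large multisynthetase complex with 3 scaffold proteins, and many cytosolic synthetase genes are known targets of ATF4, the transcription factor that answers amino acid shortage.

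Most cytosolic synthetases were higher in HD. Of the 18 measured, 14 rose, 2 fell (Sars and Qars) and 2 were not called (Vars and Kars), beside 31.4% of all genes called higher and 19.5% called lower. Their median change was 0.27, against 0.055 over all genes tested. With the control-row scaling it was 0.195 against 0.133, a gap of 0.062 where the deposited values gave 0.21. All genes include many of lower signal, which that scaling moves differently. Other genes within the cytosolic rows' range of signal had a median of 0.0040 in that setting and 0.059 as deposited. As deposited, the changes ran from -0.13 to 0.51. The 5 HD values lay wholly above the 5 LD values for 14 of the 18, where 21.6% of all genes did so. No cytosolic synthetase reached 1.5-fold, which 2.34% of all genes did with a call. In bulk RNA, a change in the number of cells that express a gene strongly and a change in RNA per cell cannot be told apart.

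Of the 16 mitochondrial enzymes, 8 rose, 1 fell (Fars2) and 7 were not called, beside 31.4% of all genes called higher and 19.5% lower. The median change of the 16 was 0.096, with a range of -0.12 to 0.90. After quantile normalization 11 of the 16 were called higher and none lower, where 42.9% of all genes were called higher and 16.6% lower. In that setting 14 of the 18 cytosolic ones were higher and 2 lower, and the difference between the compartments was not tested. The HD values lay wholly above the LD values for 7 of the 16 mitochondrial enzymes, where 21.6% of all genes did so. Mars2 was the only synthetase past 1.5-fold. Over both compartments, 22 of 34 synthetases rose and 3 fell. A positive change was seen in 27 of them, beside 11212 of the 17800 genes tested.

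**Figure D1:**
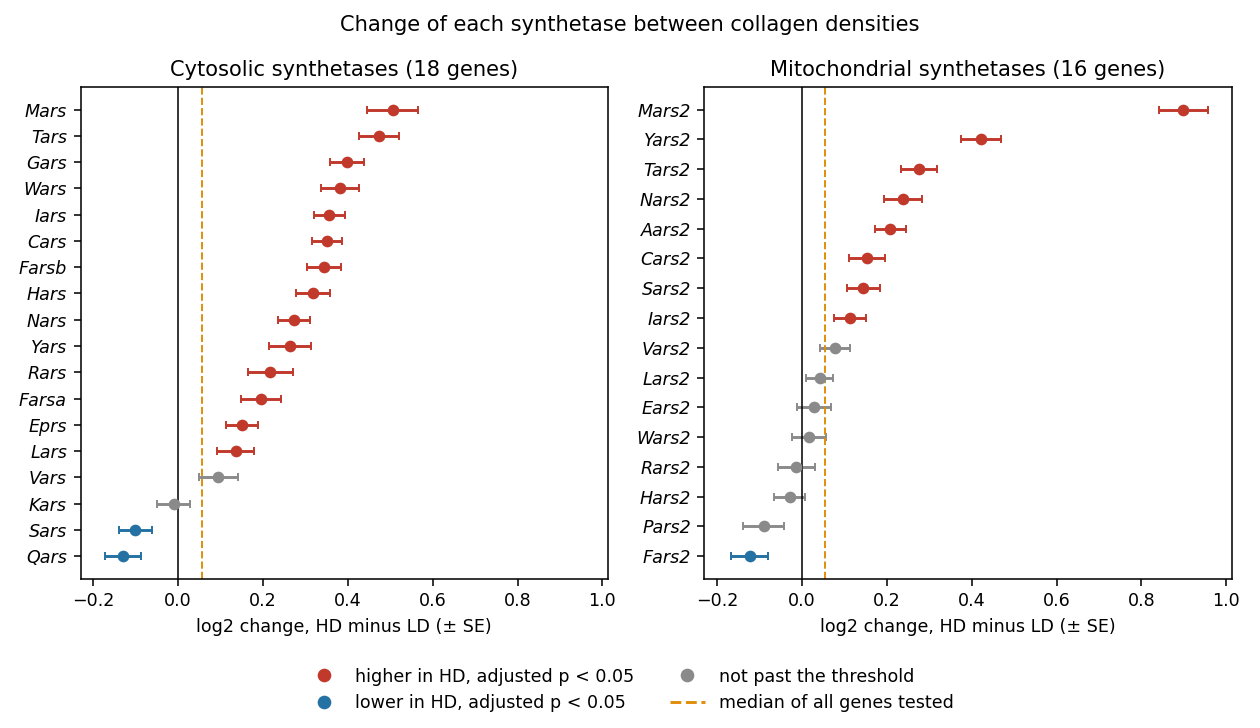
Log2 change between HD and LD for each cytosolic (left) and mitochondrial (right) synthetase, with bars for the moderated SE and a dashed line at the median of all genes tested (0.055). Cytosolic changes run from -0.13 to 0.51 with 14 of 18 called higher, and mitochondrial ones from -0.12 to 0.90 with 8 of 16 called higher.

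The methionine enzymes changed most in both compartments. Mars, the cytosolic methionyl-tRNA synthetase, loads initiator as well as elongator tRNA and belongs to the multisynthetase complex. Its signal was 8.59, 8.61, 8.65, 8.64 and 8.70 in LD and 9.19, 9.37, 9.10, 9.07 and 8.99 in HD. The groups stood well apart, with a wider spread in HD, where replicate 2 was highest. The mean went from 8.64 ± 0.046 (SD, n = 5) to 9.14 ± 0.145, a change of 0.51 ± 0.060 (SE), or 1.42-fold (limma adjusted p = 1.1e-05).

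Mars2 encodes the mitochondrial methionyl-tRNA synthetase, whose product is formylated to start mitochondrial translation. Its LD signal was 5.17, 5.28, 5.26, 5.46 and 5.34, and its HD signal 6.17, 6.22, 6.11, 6.14 and 6.36. Every HD array was above every LD array. From 5.30 ± 0.106 (SD, n = 5) it rose to 6.20 ± 0.098, by 0.90 ± 0.057 (SE) or 1.86-fold (limma adjusted p = 7.2e-08). In LD its mean was lower than the negative control median but well above the background rows, so the size of the fold is uncertain. On a given LD array 37.1% to 45.7% of the negative control rows had a lower signal than Mars2, and on a given HD array 63.4% to 71.4% did. Mtfmt, the enzyme that formylates the loaded methionine tRNA, was not called (0.068, limma adjusted p = 0.19), but was called higher after quantile normalization (0.12, limma adjusted p = 0.030).

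**Figure D2:**
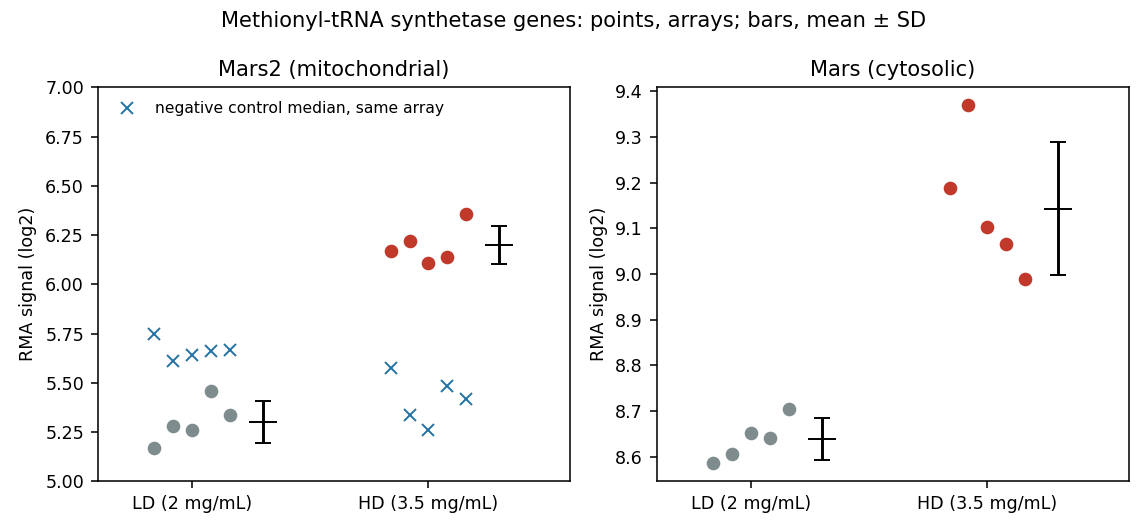
RMA signal (log2) of Mars2 (left) and Mars (right) on each array, with black bars for the group mean and SD (n = 5); crosses give the median of the negative control rows on the same array. Mars2 lies below the crosses in LD and above them in HD, while Mars lies at 8.59 to 8.70 in LD and 8.99 to 9.37 in HD.

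After Mars, the largest cytosolic rises were in Tars, Gars, Wars, Iars, Cars and Farsb. Tars, the threonyl-tRNA synthetase, had 10.12, 10.26, 10.26, 10.14 and 10.34 in LD and 10.76, 10.67, 10.70, 10.63 and 10.74 in HD. All HD values were higher, by 0.47 ± 0.047 (SE) on average, or 1.39-fold (limma adjusted p = 2.6e-06). Gars loads glycine in both compartments. Its signal was 10.30, 10.34, 10.38, 10.28 and 10.44 in LD and 10.75, 10.82, 10.75, 10.69 and 10.71 in HD. The gap between the groups again exceeded the spread within them, and the change was 0.40 ± 0.040 (SE) or 1.32-fold (limma adjusted p = 3.1e-06).

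Wars, for tryptophan, is unusual among these genes in that interferon gamma is known to induce it. It had 8.40, 8.42, 8.46, 8.43 and 8.49 in LD and 8.79, 8.97, 8.77, 8.75 and 8.82 in HD, a rise of 0.38 ± 0.044 (SE, limma adjusted p = 1.0e-05). HD replicate 2 lay above the other HD arrays. Iars, for isoleucine, had 10.11, 10.06, 10.16, 10.06 and 10.17 in LD and 10.43, 10.48, 10.46, 10.45 and 10.52 in HD, a rise of 0.36 ± 0.036 (SE, limma adjusted p = 3.1e-06). Cars, for cysteine, rose by 0.35 ± 0.035 (SE) and its HD arrays were tightly grouped, at 8.84 to 8.94, against 8.52 to 8.61 in LD.

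Phenylalanyl-tRNA synthetase of the cytosol is a tetramer of a catalytic chain, Farsa, and a second chain, Farsb. Farsb rose by 0.34 ± 0.040 (SE, limma adjusted p = 1.1e-05), from 8.46 ± 0.056 (SD, n = 5) to 8.80 ± 0.059. Farsa rose by 0.20 ± 0.047 (SE, limma adjusted p = 0.0038), from 8.45 ± 0.060 (SD, n = 5) to 8.65 ± 0.091. Both chains were thus higher in HD; whether their changes differ was not tested.

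The rises of Tars, Gars and Iars were 0.31, 0.22 and 0.20 with the control-row scaling, and each was still called.

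Smaller rises were found in Hars (histidine, 0.32), Nars (asparagine, 0.27), Yars (tyrosine, 0.26), Rars (arginine, 0.22), Eprs (0.15) and Lars (leucine, 0.14). Their HD and LD values did not overlap, with adjusted p from 2.1e-05 for Hars to 0.019 for Lars. Nars rose by 0.12 with the control-row scaling (limma adjusted p = 0.050). The calls of Rars and Eprs ended with the control-row scaling (0.059 and 0.0086, limma adjusted p = 0.39 and 0.89). The call of Lars ended there too (0.11, limma adjusted p = 0.053) and without LD replicate 1 (limma adjusted p = 0.051).

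Sars and Qars went the other way. Qars, for glutamine, had 9.97, 10.01, 9.94, 9.89 and 9.94 in LD and 9.87, 9.93, 9.75, 9.78 and 9.76 in HD. HD replicate 2 alone reached into the LD range, above LD replicate 4, and the mean change was -0.13 ± 0.043 (SE, limma adjusted p = 0.021). Its call was lost without LD replicate 2 or HD replicate 5 (limma adjusted p = 0.052 and 0.051). Sars, for serine and also the first step of selenocysteine synthesis, had 10.60, 10.70, 10.64, 10.64 and 10.67 in LD and 10.60, 10.64, 10.50, 10.53 and 10.48 in HD. The mean change was -0.10 ± 0.039 (SE, limma adjusted p = 0.043). Leaving out any single array other than LD replicate 1, HD replicate 1 or HD replicate 2 ended that call (limma adjusted p = 0.060 to 0.099). Both enzymes fell further with the control-row scaling, by 0.25 for Qars and 0.28 for Sars.

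Kars and Vars were not called. Kars, for lysine in both compartments, averaged 10.85 ± 0.037 in LD (SD, n = 5) against 10.84 ± 0.067 in HD, and its HD values lay on both sides of the LD values. With the control-row scaling Kars was lower by 0.21 (limma adjusted p = 5.8e-04). Vars, for valine, differed by 0.095 ± 0.046 (SE, limma adjusted p = 0.10), with overlapping groups, and by -0.014 with the control-row scaling.

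Array by array, LD replicate 5 was the highest LD array for 12 of the 18 cytosolic and 9 of the 16 mitochondrial genes, beside 21.0% of all genes tested. In HD, replicate 2 was highest for 9 cytosolic and 4 mitochondrial genes and replicate 1 for 7 of each, beside 30.8% and 19.7% of all genes. The median over the 18 genes of the signal minus the LD mean was -0.049 to 0.053 on the LD arrays and 0.23 to 0.35 on the HD arrays. No LD array reached the lowest HD array in that median. For the mitochondrial genes it was -0.032 to 0.049 in LD and 0.048 to 0.11 in HD, where the highest LD array lay just above the lowest HD array, HD replicate 5.

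**Figure D3:**
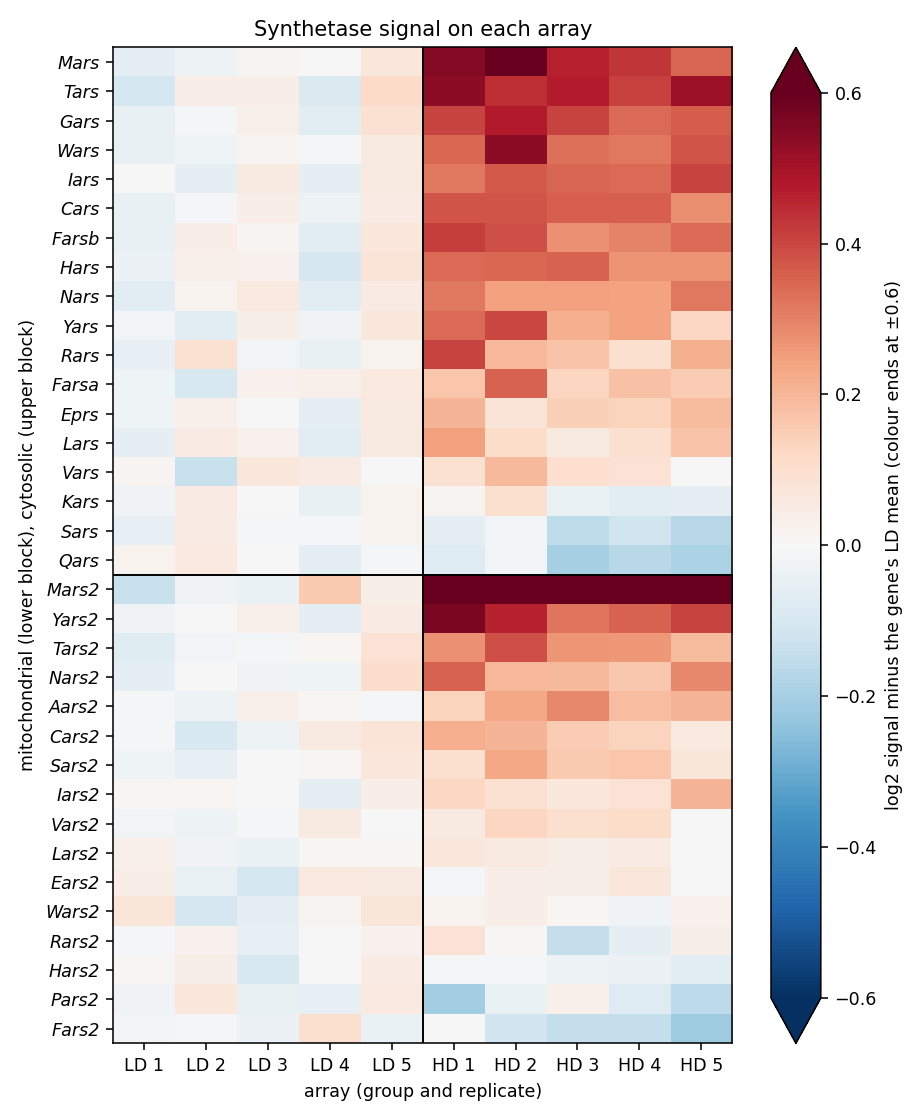
Signal of each synthetase on each array as the log2 difference from the gene's LD mean (colour, ending at ±0.6), with cytosolic genes above and mitochondrial genes below the horizontal line and LD left of the vertical line. Most cytosolic rows are red on all 5 HD arrays, while among the mitochondrial rows the deepest red is in Mars2 and Yars2.

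Among the mitochondrial enzymes, Yars2 (tyrosine) followed Mars2. It had 7.18, 7.20, 7.23, 7.14 and 7.25 in LD and 7.76, 7.66, 7.52, 7.55 and 7.60 in HD, with no overlap and a rise of 0.42 ± 0.046 (SE, limma adjusted p = 6.1e-06), or 1.34-fold. Tars2, for threonine, had 8.29, 8.35, 8.36, 8.38 and 8.45 in LD and 8.64, 8.75, 8.63, 8.63 and 8.56 in HD, a rise of 0.28 ± 0.042 (SE, limma adjusted p = 1.1e-04). Nars2, for asparagine, had 7.26, 7.31, 7.29, 7.29 and 7.42 in LD and 7.67, 7.51, 7.51, 7.47 and 7.60 in HD, a rise of 0.24 ± 0.045 (SE, limma adjusted p = 5.9e-04). In each of these 3 genes every HD array exceeded every LD array.

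Aars2 (alanine), Cars2 (cysteine), Sars2 (serine) and Iars2 (isoleucine) rose by 0.21, 0.15, 0.14 and 0.11, with adjusted p of 2.9e-04, 0.0092, 0.0076 and 0.021. The HD and LD values of Cars2 overlapped and those of the other 3 did not. Under quantile normalization Sars2 rose by 0.22, and with the control-row scaling Sars2 and Aars2 rose by 0.24 and 0.33. Iars2 lost its call without LD replicate 4 or HD replicate 5 (limma adjusted p = 0.051 and 0.052) and with the control-row scaling (0.083, limma adjusted p = 0.095).

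Fars2, the single-chain mitochondrial phenylalanine enzyme, was the 1 called lower. Its values were 7.80, 7.81, 7.78, 7.91 and 7.78 in LD and 7.81, 7.70, 7.67, 7.67 and 7.60 in HD. HD replicate 1 fell within the LD range, and the mean change was -0.12 ± 0.044 (SE, limma adjusted p = 0.030). That call was lost without LD replicate 4, HD replicate 3, HD replicate 4 or HD replicate 5 (limma adjusted p = 0.054 to 0.074), and under quantile normalization (-0.062, limma adjusted p = 0.21) and the control-row scaling (-0.062, limma adjusted p = 0.24).

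The remaining 7 mitochondrial genes were not called. Vars2, Lars2, Ears2 (glutamate) and Wars2 differed by 0.078, 0.042, 0.028 and 0.016, and Rars2, Hars2 and Pars2 (proline) by -0.013, -0.030 and -0.091, signs that turned under quantile normalization and the control-row scaling. The signals of all 7 overlapped between the groups. Vars2, Lars2 and Ears2 were called higher under quantile normalization (0.14, 0.10 and 0.12) and the control-row scaling (0.14, 0.12 and 0.18). Vars2 also passed without HD replicate 5 (0.097, limma adjusted p = 0.038), and Pars2 passed as lower without HD replicate 3 (-0.12, limma adjusted p = 0.041).

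For 15 combinations of amino acid and gene, a cytosolic and a mitochondrial enzyme could be set side by side; Eprs enters for both glutamate and proline, and Gars and Kars have no mitochondrial partner. Each difference below is the mitochondrial minus the cytosolic change, taken within arrays and given with its SE but without a test. As deposited, the cytosolic change was the larger in 12 of the 15, against 11 without LD replicate 2, 9 after quantile normalization and 6 with the control-row scaling. The median difference was -0.20 as deposited, -0.10 after quantile normalization and 0.023 with the control-row scaling. The order of the compartments by change alone therefore depended on the scaling. As deposited, after quantile normalization and with the control-row scaling, cytosolic synthetases had median changes of 0.268, 0.262 and 0.195. Other genes within their range of signal had 0.059, 0.045 and 0.0040. Mitochondrial synthetases had 0.096, 0.13 and 0.163, and other genes within their range 0.043, 0.10 and 0.15. How far the compartments differ beyond genes of like signal was not tested.

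Within arrays, the mitochondrial minus cytosolic signal was lower on all 5 HD arrays than on any LD array for 8 of the 15 as deposited, for 6 after quantile normalization and for 3 with the control-row scaling. The reverse held for 2, 3 and 4. Proline, for which Eprs and Pars2 gave -0.24 as deposited, turned to 0.064 with the control-row scaling. Tryptophan gave the largest such gap, -0.37 ± 0.049, as Wars rose and Wars2 did not pass. Histidine followed at -0.35 ± 0.039, which shrank to -0.24 after quantile normalization and -0.16 with the control-row scaling. Hars and Hars2 are adjacent genes in RefSeq's table, and their changes were 0.32 and -0.030. Phenylalanine had -0.32 ± 0.061, for a rise in Farsa and a fall in Fars2. In the control-row scaling the cytosolic change stayed the larger for cysteine, phenylalanine, histidine, isoleucine, threonine and tryptophan.

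For 3 amino acids the mitochondrial change was the larger. Methionine had a difference of 0.39 ± 0.095 and serine 0.25 ± 0.038, both with HD arrays wholly above LD arrays, and tyrosine 0.16 ± 0.044 with overlap. The methionine value rests on Mars2, whose LD signal lies below the negative control median, so its size is uncertain. The serine enzymes changed in opposite directions, Sars by -0.10 and Sars2 by 0.14. The methionine and serine differences grew with the control-row scaling, to 0.66 for methionine and 0.52 for serine. Asparagine (-0.034) and valine (-0.016) had nearly equal changes in both compartments as deposited.

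**Figure D4:**
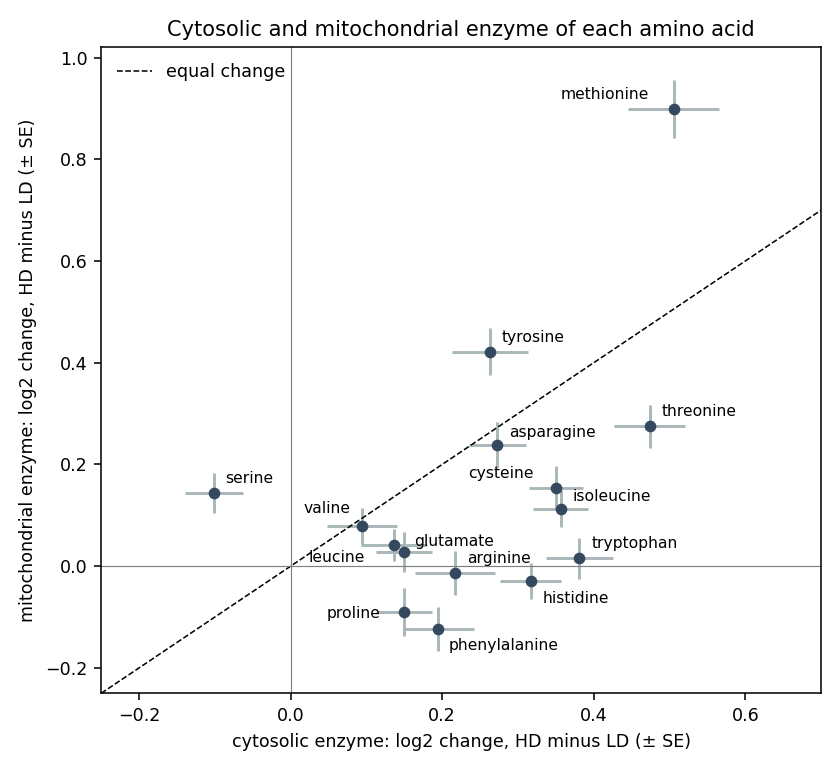
Log2 change (HD minus LD) of the mitochondrial enzyme against that of the cytosolic enzyme for 15 combinations of amino acid and gene, with SE bars and a dashed line of equal change. As deposited, 12 points lie below the line, against 9 after quantile normalization and 6 with the control-row scaling (not drawn); methionine, serine and tyrosine lie above it.

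The rows of the compartments also differ in signal, which cannot be read as RNA amount between genes. Cytosolic rows had means of 8.14 to 10.85 and mitochondrial rows 5.75 to 8.84. Other genes in the cytosolic span of signal had a median change of 0.059, with 40.0% called higher and 21.9% lower. Other genes in the mitochondrial span had a median change of 0.043, with 29.9% higher and 22.6% lower. With the control-row scaling the medians of the synthetases were 0.195 and 0.163, and those of the other genes in the spans were 0.0040 and 0.15. That scaling left 11 cytosolic enzymes called higher and 3 lower, and 10 of 16 mitochondrial ones called higher, beside 52.4% of the other genes in the mitochondrial span and 29.9% of those in the cytosolic span. The mitochondrial count was then close to the share of its span.

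By structure, synthetases fall into class I, with a Rossmann-fold catalytic domain, and class II, with a fold of antiparallel strands. In class I, 11 of 18 genes rose and 1 (Qars) fell, and the median change was 0.14. In class II, 10 of 15 measured genes rose and 2 (Sars and Fars2) fell, and the median was 0.21. Beside these counts, 31.4% of all genes were called higher and 19.5% lower. Eprs, which holds a domain of each class, was left out of both. Changes ranged from -0.13 to 0.90 in class I and from -0.12 to 0.47 in class II.

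Among the 7 measured enzymes of the multisynthetase complex, Mars, Iars, Rars, Eprs and Lars rose, Qars fell and Kars was not called, with a median of 0.15. The 11 cytosolic enzymes outside the complex had 9 rises and 1 fall and a median of 0.32. Of all genes, 31.4% were called higher and 19.5% lower, and the difference between the complex and the other enzymes was not tested. Under the control-row scaling the complex had 2 rises and 2 falls, and the enzymes outside it 9 and 1. In that setting 49.3% of all genes were called higher and 19.1% lower. Of the other genes within the cytosolic rows' range of signal, 29.9% were then higher and 28.7% lower. Of the 3 scaffold proteins, 2 rose. Eef1e1 (AIMP3) had 10.37, 10.35, 10.39, 10.28 and 10.39 in LD and 10.97, 11.16, 10.95, 10.97 and 11.08 in HD. It rose by 0.67 ± 0.045 (SE) or 1.59-fold (limma adjusted p = 1.3e-07), a larger value than that of each of the 18 cytosolic synthetases. Aimp2 rose by 0.34 ± 0.057 (SE, limma adjusted p = 2.2e-04), whereas Aimp1 differed by 0.033 ± 0.040 (SE, limma adjusted p = 0.51), and by -0.018 with the control-row scaling.

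Of 12 cytosolic synthetase genes listed as ATF4 targets from general knowledge, 11 were measured. Of these, 10 rose and Sars fell, with a median change of 0.35, beside 31.4% of all genes called higher and 19.5% lower. Among the 7 other cytosolic synthetases, 4 rose (Farsb, Hars, Rars and Farsa) and Qars fell, with a median of 0.20. With the control-row scaling the medians were 0.22 and 0.059. In that setting 8 of the 11 rose and 1 fell, and 3 of the 7 rose and 2 fell. Of all genes, 49.3% were then called higher and 19.1% lower, and of other genes within the cytosolic rows' range of signal 29.9% and 28.7%. The difference between the 11 and the 7 was not tested. Xpot, the exporter that carries tRNA out of the nucleus, is also a known ATF4 target, and it rose by 0.39 ± 0.036 (SE, limma adjusted p = 1.5e-06), from 8.80 to 8.93 across the LD arrays to 9.19 to 9.26 across the HD arrays.

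Of the 12 genes listed for the amino acid response, 5 rose and 3 fell, beside 31.4% of all genes called higher and 19.5% lower. The median change of the 12 was 0.092. Atf4 rose by 0.28 ± 0.039 (SE, limma adjusted p = 5.9e-05), from 8.74 ± 0.044 (SD, n = 5) to 9.01 ± 0.064. Asns, the asparagine synthetase, rose by 0.58 ± 0.064 (SE), and Psat1 of serine synthesis by 0.51 ± 0.057 (SE). Ddit3, which encodes the stress factor CHOP, fell by 0.53 from 8.15 ± 0.074 (SD, n = 5) to 7.63 ± 0.137 (limma adjusted p = 9.3e-06). Every HD value of Ddit3 lay below every LD value, while those of Atf4, Asns and Psat1 lay above. Of the other called genes in the list, Slc7a11 and Chac1 rose by 0.49 and 0.40. Eif2ak4 and Eif2ak3 fell by 0.15 and 0.20.

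Upstream sequence was read for the members that RefSeq's promoter table (GRCm38.p6) holds, 25 of the 34, with 11 cytosolic and 14 mitochondrial genes. Each window covers 250 bases before and 50 after the annotated start. The core of the C/EBP-ATF response element, to which ATF4 heterodimers bind, was searched as TGATGNAA on both strands. It occurred in the windows of 4 cytosolic genes (Gars, Iars, Tars and Yars), beside 3.97% of all 32851 windows in the table. None of the 14 mitochondrial genes had it, a count that alone means little at so low a share. The difference between the compartments was not tested. The 4 cytosolic genes with the core were all called higher in HD, by 0.40, 0.36, 0.47 and 0.26, and all 4 are on the list of ATF4 targets. Of the 7 cytosolic windows without the core, 4 also belonged to genes called higher (Mars, Farsb, Farsa and Eprs), 2 to genes called lower (Qars and Sars) and 1 to Kars. Mars, with the largest cytosolic rise, Eprs and Sars are on the ATF4 list as well. The stricter form TGATGCAA, contained in that core, was in 3 of these windows and in 0.895% of all windows. The sites are printed because they are the letters these rising genes share; each is 30 bases, read 5′ to 3′ on the gene's strand, with the match in capitals.
Tars, chr15:11399655-11399684, minus strand: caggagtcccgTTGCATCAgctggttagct
Iars, chr13:49682126-49682155, plus strand: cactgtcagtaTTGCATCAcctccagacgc
Yars, chr4:129189895-129189924, plus strand: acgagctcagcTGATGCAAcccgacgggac
Gars, chr6:55037960-55037989, plus strand: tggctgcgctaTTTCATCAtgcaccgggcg
Tars and Iars show the reverse complement of the stricter form, Yars the stricter form itself, and Gars the reverse complement of the looser core only. The match begins 15 bases before the start in Tars and 30 before it in Gars, and lies at bases 8 to 15 after the start in Iars and 4 to 11 in Yars. A match is a description of these letters and not evidence of binding.

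For the genes with the match before the start, the whole 250 bases are given, with Mars2, which had the largest change and no match, for comparison.
Tars, chr15:11399659-11399908, minus strand: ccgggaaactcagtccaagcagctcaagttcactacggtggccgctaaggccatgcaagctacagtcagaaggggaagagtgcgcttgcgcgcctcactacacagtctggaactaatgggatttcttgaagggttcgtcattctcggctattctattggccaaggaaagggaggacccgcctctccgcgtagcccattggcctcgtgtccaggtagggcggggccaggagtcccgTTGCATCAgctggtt
Gars, chr6:55037751-55038000, plus strand: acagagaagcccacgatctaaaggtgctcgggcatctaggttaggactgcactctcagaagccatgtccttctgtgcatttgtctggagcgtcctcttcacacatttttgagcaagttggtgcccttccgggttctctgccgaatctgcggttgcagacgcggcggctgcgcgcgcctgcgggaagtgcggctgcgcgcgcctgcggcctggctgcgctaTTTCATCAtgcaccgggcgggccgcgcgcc
Mars2, chr1:55236927-55237176, plus strand: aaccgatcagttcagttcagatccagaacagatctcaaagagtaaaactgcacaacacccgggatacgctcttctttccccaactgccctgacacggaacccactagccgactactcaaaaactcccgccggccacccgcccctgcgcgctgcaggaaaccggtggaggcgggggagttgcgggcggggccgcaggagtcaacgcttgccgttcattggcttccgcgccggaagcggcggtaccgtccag
The E-box CACGTG, a site of MYC family proteins, was in the windows of Farsb, Iars and Tars and of the mitochondrial Ears2, beside 7.15% of all windows. CCAAT was in 6 cytosolic and 6 mitochondrial members and 37.4% of all windows, and GGGCGG in 7 and 11 members and 35.7% of all windows. Both strands were searched for each, and CACGTG reads alike on both.

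Genes that act beside the mitochondrial synthetases went both ways, as did all genes, with 31.4% called higher and 19.5% lower. Mitochondria make glutaminyl-tRNA without a glutaminyl-tRNA synthetase, by converting glutamate already on the tRNA with an amidotransferase of 3 subunits. Its subunits Qrsl1 and Gatc rose by 0.43 ± 0.051 (SE, limma adjusted p = 1.3e-05) and 0.34 ± 0.051 (SE, limma adjusted p = 9.1e-05). Gatb, the third subunit, differed by -0.078 ± 0.038 (SE, limma adjusted p = 0.10). It was called lower on median centring (-0.090, limma adjusted p = 0.050), and its sign turned under quantile normalization (0.0074) and the control-row scaling (0.050). Of 10 mitochondrial translation factors, 4 rose and 3 fell. With the control-row scaling 6 rose and 2 fell, where 49.3% of all genes were called higher and 19.1% lower. The elongation factors Gfm1 and Tufm rose by 0.45 and 0.28, and Gfm2, which acts in ribosome recycling, fell by 0.26. With the control-row scaling Gatc rose by 0.19 and Gfm2 fell by 0.16, both still called.

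Of 12 genes of mitochondrial tRNA processing and modification, 7 rose and Cdk5rap1 fell, by 0.16, and the median was 0.14. Of all genes, 31.4% were called higher and 19.5% lower. With the control-row scaling 7 of the 12 again rose, where 49.3% of all genes were called higher. The Cdk5rap1 call was lost under quantile normalization (-0.073, limma adjusted p = 0.19) and the control-row scaling (-0.018, limma adjusted p = 0.76). Elac2, the enzyme that trims the 3′ end of tRNA precursors, rose by 0.48 ± 0.043 (SE, limma adjusted p = 1.1e-06). Trnt1, which adds the terminal CCA in both compartments, rose by 0.31, and the modification enzyme Gtpbp3 by 0.24. All LD and HD arrays of these 3 genes stood apart.

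Among 6 cytosolic elongation factors there were 2 rises and 1 fall, shares near those of all genes, and the median was 0.082. The control-row scaling gave 2 rises, 3 falls (Eef2, Eef1a1 and Eef1b2) and a median of -0.10. Eef1g and Eef1d of the exchange complex rose by 0.20 and 0.15, and Eef2, the translocase, fell by 0.095 (by 0.48 with the control-row scaling). The Eef1g call ended with the control-row scaling (0.0044, limma adjusted p = 0.94). In the list of selenocysteine tRNA genes 2 of 6 rose, a share near that of all genes, with Sephs2 up by 0.61 and Sephs1 by 0.14. The Sephs1 call ended with the control-row scaling (0.057, limma adjusted p = 0.22). Of 3 measured trans-editing genes, which clear mischarged tRNA, Dtd1 rose by 0.096 (limma adjusted p = 0.041), and its call was lost on median centring (0.085, limma adjusted p = 0.081); it rose by 0.18 under quantile normalization and 0.21 with the control-row scaling. Over all these lists, 26 of 57 genes rose and 8 fell, beside 31.4% of all genes called higher and 19.5% lower. With the control-row scaling 31 rose and 8 fell, beside 49.3% and 19.1% of all genes.

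**Figure D5:**
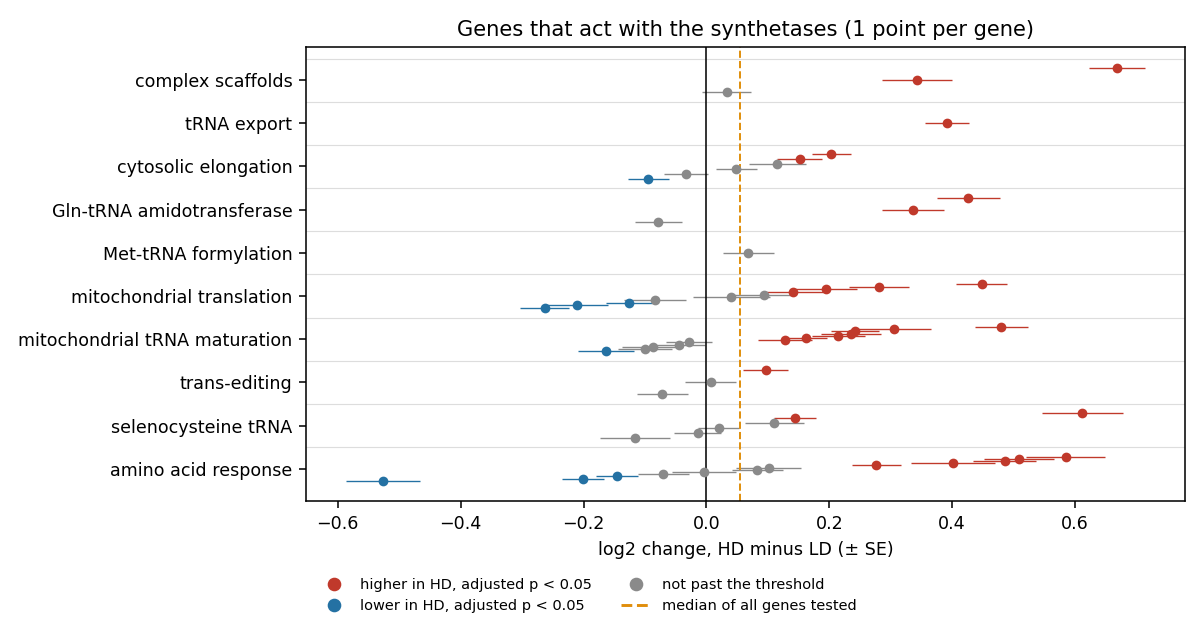
Log2 change (HD minus LD) with SE of 57 genes that act with the synthetases, 1 point per gene, grouped by role, with a dashed line at the median of all genes tested (0.055). Complex scaffolds and the tRNA exporter lie at 0.033 to 0.67, whereas mitochondrial translation and the amino acid response hold genes on both sides of 0.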

How the data were processed

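Expression was measured on 10 Affymetrix MTA 1.0 arrays of 4T1 cells (5 LD, 5 HD). The deposited table holds RMA signals, a method named in the submitters' processing notes, and their log2 scale was read from the values the authors deposited. RMA shrinks folds, and the deposited rows did not share one distribution, with array medians of 5.19 to 5.28. Software, annotation and build: not given in the sources used here.

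Rows naming 1 symbol in the platform annotation (30604) were named through it, 827 symbols being updated by RefSeq gene ID. The brightest row stood for a gene. Genes with a mean above 5.24 were fitted in limma 3.58.1 (R 4.3.3; lmFit, eBayes, 2 groups, Benjamini-Hochberg over 17800 genes, threshold 0.05), which was tested on simulated data. All synthetases were named, and from other lists up to 3 called genes with the largest changes, plus scaffolds, amidotransferase subunits, Mtfmt and Atf4. Cell type markers, Cdk5rap1, Eef1a1, Eef1b2, Slc7a11, Chac1, Eif2ak4 and Eif2ak3 were named after their values were seen. Members, lists and motifs were chosen with earlier results of these data known, so list counts have no test. The control-row scaling set each array's medians of negative and positive control rows to their means over arrays.

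Same-numbered LD and HD arrays had correlations of deviations of 0.19, -0.091, -0.036, 0.22 and -0.025, so numbers were not treated as pairs. Alternatives were a replicate block, quantile normalization, median centring, control-row scaling, no filter, a 75th percentile filter, averaging rows, trended and robust variance, and leaving out each array. Settings for the within-array differences of partner enzymes were chosen after seeing the data.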

Additional observations from a re-analysis of the deposited data

Results flagged for a closer look

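Of 116 groups of 5 arrays (58 genes named by the stated rule, each in LD and HD), 4 held an array far from the other 4. Chance flags about 1 in 20 such groups. In HD, replicate 2 was apart for Farsa at 8.81 (next highest 8.63) and for Wars at 8.97 (next highest 8.82), and replicate 5 for Cars at 8.84 (next lowest 8.92). In LD, replicate 4 was apart for Fars2 at 7.91 (next highest 7.81), and without that array the Fars2 call was lost (limma adjusted p = 0.073).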

How the results depend on the processing

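Of 22 synthetases called higher, 18 stayed so in each of the 18 other settings in which they were tested; the exceptions were Eprs, Rars, Lars and Iars2. Under the control-row scaling 8778 genes were higher. Cytosolic enzymes called lower numbered 1 with the replicate block or no filter, and 0 to 2 when an array was left out. No mitochondrial enzyme was lower in limma under quantile normalization or the control-row scaling (0 at an unadjusted p under 0.05) or with no filter (1 at an unadjusted p under 0.05), and 0 to 1 when an array was left out. The cytosolic median was 0.195 with the control-row scaling. The mitochondrial median was 0.130 after quantile normalization, 0.163 with the control-row scaling and 0.129 with the 75th percentile filter, which left 30 of 34 synthetases. The median mitochondrial minus cytosolic difference moved to -0.10 and 0.023 in the first 2 of these settings. Under quantile normalization and the control-row scaling, signs turned for Hars2 (0.057 and 0.099), Pars2 (3.9e-04 and 0.073) and Rars2 (0.068 and 0.082), none called, and for Vars under the latter (-0.014). Leaving out an array gave -0.037 to 0.0036 for Kars, -0.038 to 0.019 for Rars2 and -0.0093 to 0.034 for Wars2. The replicate block called 9058 genes and ended the Sars call (limma adjusted p = 0.056) and no other synthetase's. The control-row scaling lowers bright and raises dim HD signals by construction, since the control rows spread further apart in HD; which scaling is right was not tested.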

Other observations

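The row that names both Exosc6 and Aars had a signal of 8.29, 8.31, 8.40, 8.35 and 8.48 in LD and 8.79, 8.86, 8.82, 8.77 and 8.69 in HD. It differed by 0.42 between the groups (two-sided exact permutation p = 0.0079, the smallest that 5 against 5 arrays allow), and it cannot be assigned to the alanyl-tRNA synthetase gene alone.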
